A study of Mus musculus with 4 samples.

Results

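Cluster 2 is the group of cells whose marker genes are those of beating heart muscle, in a single-cell study of mouse embryonic stem cells taken through a directed cardiac differentiation. It is 1 of 15 numbered clusters in the authors' deposited table of marker genes, and its members here are all 580 genes that this table lists for it, of 1197 genes listed for any cluster. The study held 4 libraries, with 1 library in each group: Brm knockout mesoderm, wild-type mesoderm, Brm knockout cells at the cardiac stage and wild-type cells at the cardiac stage. All 4 carried the BRG1 3XFLAG allele, and the knockout lines lacked BRM in addition. BRG1 and BRM are the alternative motor subunits of the BAF complex, which uses ATP to move nucleosomes. The libraries were made from single cells with the 10x V2 chemistry and sequenced on a HiSeq4000.

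The authors' deposited table sets each cluster against all other cells and names no library. The libraries whose cells make up cluster 2 are not named there, and the name under which the table was deposited mentions the BRM knockout only. Smarca2 and Smarca4, the genes of BRM and BRG1, had no entry for any cluster, so the table offers no check of the genotype labels. The genotypes and the stages could not be compared within cluster 2, and no value below has a replicate or a test over samples. Sequencing depth per library and the number of cells are unknown. Each entry gives the fold of the mean level inside the cluster over the mean level outside it, together with the percent of cells inside and outside in which at least 1 molecule of the gene was detected. Every fold and every share of cells below comes from the authors' deposited table, unless the sentence says that it was worked out from it. The cells were clustered on these same expression values, so the entries describe cluster 2 and are not independent evidence that it differs.

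A cardiomyocyte contracts by sliding myosin thick filaments along actin thin filaments inside the sarcomere, a unit that is anchored at its ends by Z discs and spanned by titin. Contraction is switched on by calcium released from the sarcoplasmic reticulum and paid for by ATP, most of it made in mitochondria. During differentiation from mesoderm, cells of the early heart switch on transcription factors such as Nkx2-5, assemble sarcomeres and begin to beat while many of them still divide.

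All 6 of the 6 cardiomyocyte markers looked up were listed higher in cluster 2. Actc1, the cardiac alpha actin, was detected in 98.2% of cells inside and 8.6% outside. The titin gene Ttn was detected in 96.3% of cells inside and 1.9% outside, and the cardiac transcription factor gene Nkx2-5 in 60.6% inside and 1.2% outside, in the authors' deposited table. Detection of Myl7, Myl4 and Tnnt2, which encode an atrial myosin light chain, an embryonic one and cardiac troponin T, ran between 96.7% and 98.4% of cells inside and between 3% and 8% outside. These 6 genes belong to the label of the cluster and were chosen with earlier results of these data known. Their direction therefore describes the cluster and is no check of the label.

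Cluster 2 had 272 genes listed higher and 308 listed lower in the authors' deposited table. The higher genes made up 22.7% of the 1197 genes in the table and 0.716% of the 37991 features over which the authors adjusted their p-values. The lower genes made up 25.7% of the genes in the table and 0.811% of those features. The 2 directions differed in shape. Folds of the higher genes had a median of 2.30 and reached 58.9, with 24 genes above 10-fold, whereas folds of the lower genes had a median of 1.96 and reached 11.2, with 4 genes above 5-fold. The median higher gene was detected in 58.2% of cells inside and 13.2% outside, and the median lower gene in 17.2% inside and 46.6% outside. By the detection of genes inside and outside the clusters, cluster 2 was worked out to hold 12.6% of all cells in the table.

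**Figure D1:**
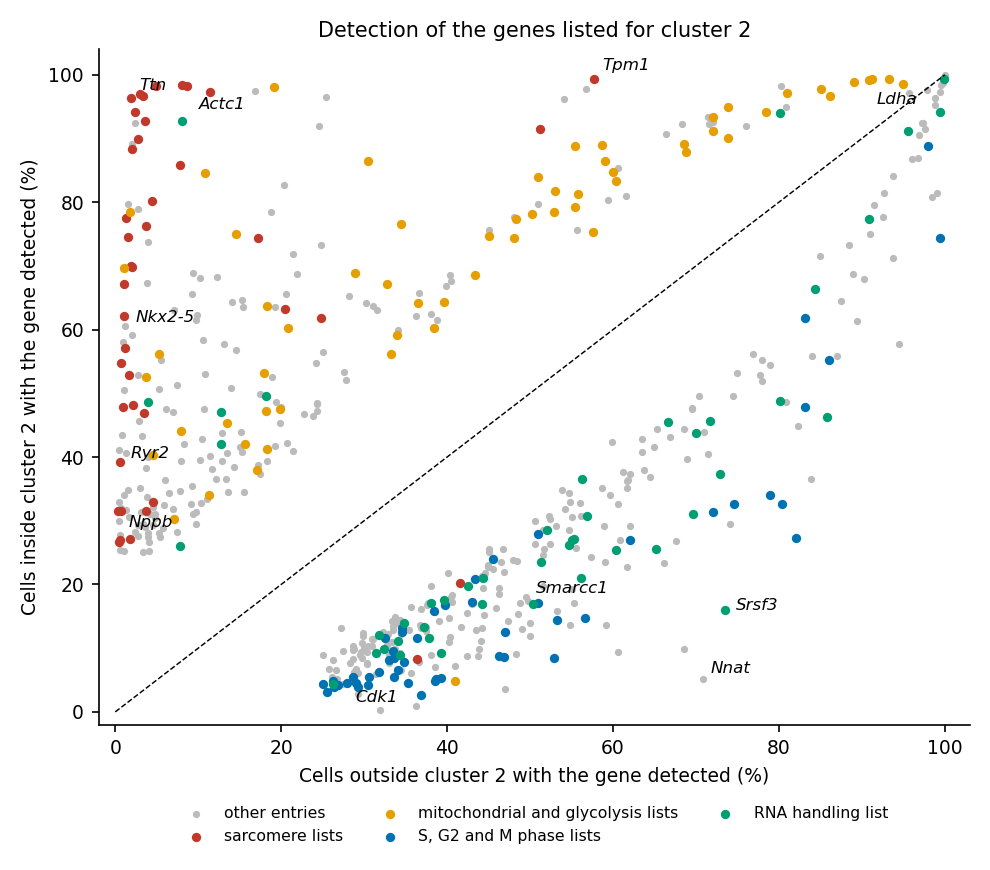
Share of cells with each of the 580 genes detected, inside cluster 2 (vertical axis, percent) against outside it (horizontal axis, percent), with 1 point per gene and a dashed line where both shares are equal. Sarcomere genes crowd the upper left, where few outside cells had the gene. Mitochondrial and glycolysis genes lie mostly above the line and spread from left to right. Of the 42 higher mitochondrial energy genes, 19 were detected in at least 50% of outside cells. Cell cycle genes lie below the line, as do 38 of the 46 RNA handling genes, while 8 of the 46 were listed higher.

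The higher genes fell along a range from those almost restricted to the cluster to those found in nearly every cell. Of the 272, 82 were detected in under 5% of outside cells, and their median fold was 3.27 with 40.9% of cells inside. In these 82 genes, a median of 79.9% of all detecting cells was worked out to lie in cluster 2, and 30 of them were sarcomere genes. At the other end, 50 higher genes were detected in at least 50% of outside cells, with a median fold of 2.13 and a median detection of 92.3% inside. Those 50 included 2 sarcomere genes and 19 of the mitochondrial energy list. For 4 genes the level was higher although the gene was detected in no larger share of cells inside than outside. They were the nuclear noncoding RNA gene Malat1, at 99.3% inside and 99.9% outside, and the mitochondrially encoded cytochrome oxidase genes mt-Co1, mt-Co2 and mt-Co3.

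Sarcomere genes made up most of the largest differences. Of 95 genes on the thick filament, thin filament and Z disc lists together, 43 were in the authors' deposited table, 39 were listed higher in cluster 2 and 2 were listed lower, and 19 of the 30 genes with the highest folds were among them. This count, and those of the lists below, can be set beside 22.7% of all table genes listed higher and 25.7% listed lower. A gene can be in the table through its entry for cluster 2 alone, so such shares are partly built in. A gene enters the table only where at least 25.1% of cells on the better-detected side have it, and then by a fold of at least 1.65, so the list members outside the table are not shown to be alike inside and outside.

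In the thick filament, all 11 list genes in the table were higher, by a median of 13.9-fold. The light chain genes led them, with Myl7 at 53.5-fold, Myl4 at 40.8-fold and the slow ventricular Myl3 at 32.4-fold. The ventricular regulatory light chain gene Myl2 was 13.9-fold higher, with 74.5% of cells inside and 1.5% outside. Both cardiac myosin heavy chain genes were present together: Myh7, the slow heavy chain, was 15.6-fold higher and detected in 88.3% of cells inside and 2% outside, and Myh6, the fast one, was 14.8-fold higher and detected in 89.9% inside and 2.7% outside. Genes that bind, fold or modify myosin had smaller folds. Mybpc3, the cardiac myosin binding protein, was 4.44-fold higher with 54.8% of cells inside and 0.7% outside, in the authors' deposited table. Smyd1, a muscle methyltransferase needed for myosin assembly, was 3.61-fold higher with 47.9% inside and 0.9% outside, and the myosin chaperone gene Unc45b was 2.55-fold higher with 31.6% inside and 0.7% outside.

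Thin filament genes were listed higher for 15 of 17 members in the table, with a median of 8.42-fold. The muscle actins were among them, with the smooth and skeletal forms that the early heart also makes. Besides Actc1 at 58.9-fold, Acta2, the smooth muscle actin, was 23.1-fold higher and detected in 97.3% of cells inside and 11.4% outside, and Acta1, the skeletal actin, was 21.3-fold higher and detected in 80.2% inside and 4.4% outside. The slow skeletal troponin I gene Tnni1, which is the fetal form in heart, was 26.4-fold higher with 98.3% of cells inside and 4.9% outside. Its adult cardiac counterpart Tnni3 was 10.2-fold higher with 70% inside and 1.9% outside. Tpm1, the striated muscle tropomyosin gene, was 11-fold higher but was detected in 57.7% of outside cells too, against 99.4% inside. Tpm3 and Tpm4, which encode tropomyosins that also occur outside muscle, were the 2 list members listed lower, by 2.18-fold and 1.68-fold.

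At the Z disc and along titin, 14 of 16 list members in the table were higher, by a median of 4.85-fold. Ttn was 20.3-fold higher, and 88% of all cells that detected it were worked out to lie in cluster 2. Cryab, a small heat shock chaperone of desmin and titin, was 15.4-fold higher, and Des, the desmin gene, was 7.62-fold higher with 85.8% of cells inside and 7.8% outside. Actn2, the alpha-actinin of the Z disc, was 8.42-fold higher with 77.5% inside and 1.3% outside. The muscle LIM protein gene Csrp3 was 10.5-fold higher, and 67.1% of inside cells and 1% of outside cells had it. Its relatives Csrp1 and Csrp2 were higher by 4.77-fold and 3.74-fold, and were found in 17.2% and 51.2% of outside cells in the authors' deposited table. Pdlim1 and Fhl2 were the list members in the table that had no entry for cluster 2.

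**Figure D2:**
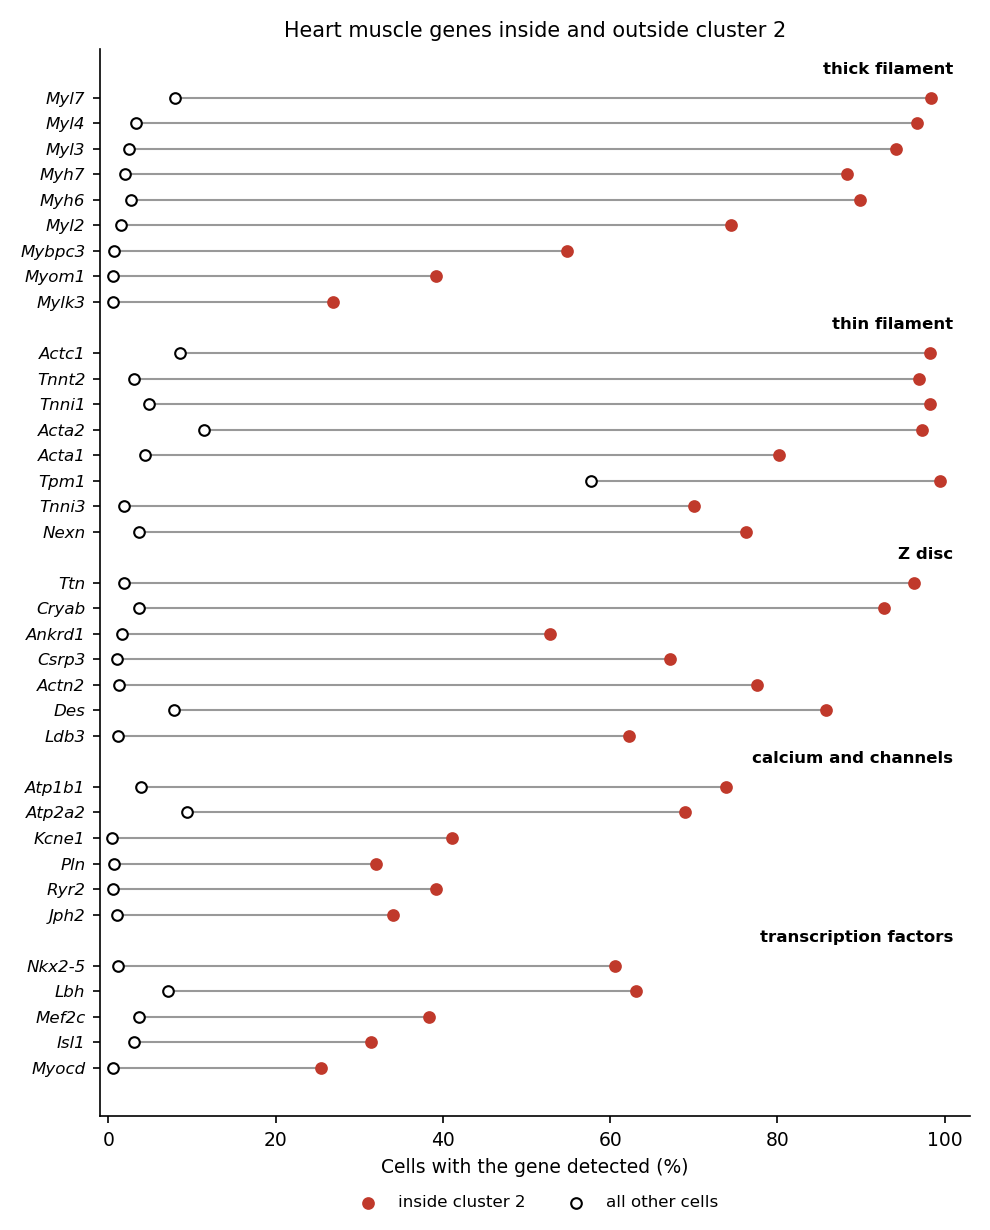
Share of cells with a gene detected, in percent, inside cluster 2 (filled points) and in all other cells (open points), for heart muscle genes grouped by role and ordered by fold within a group. The thick and thin filament genes with the highest folds reach almost every inside cell (Myl7 98.4%, Actc1 98.2%), while others reach fewer (Mybpc3 54.8%, Mylk3 26.9%). Calcium, channel and transcription factor genes run from 25.4% (Myocd) and 32% (Pln) to 73.8% (Atp1b1). Tpm1 is the gene with a large share outside (57.7%).

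The promoters of the sarcomere genes are shown because a known muscle motif stood in several of them. The CArG box is the sequence bound by serum response factor, and its matches here are a description of letters with no test of that factor. RefSeq promoter windows of build GRCm38.p6, from 250 bases before to 50 bases after the gene start, were matched by symbol for 34 of the 39 higher sarcomere genes. A CArG box on either strand was found in 8 of the 34 (23.5%), in 6 of 256 lower genes with a window (2.34%) and in 307 of 17492 protein-coding genes (1.76%). A gene counts where any of its windows holds the motif, and windows per gene averaged 1.41 in the sarcomere genes, 1.23 in the lower genes and 1.22 in all protein-coding genes. The 150 bases before the start, in which capitals mark the CArG box, are printed for the 4 of the 8 genes with the highest folds.
Actc1: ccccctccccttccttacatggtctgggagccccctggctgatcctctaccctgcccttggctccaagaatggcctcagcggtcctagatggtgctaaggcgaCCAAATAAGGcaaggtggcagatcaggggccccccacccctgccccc
Myl7: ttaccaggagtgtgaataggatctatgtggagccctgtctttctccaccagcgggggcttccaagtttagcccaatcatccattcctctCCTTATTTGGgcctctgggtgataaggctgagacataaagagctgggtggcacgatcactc
Myl3: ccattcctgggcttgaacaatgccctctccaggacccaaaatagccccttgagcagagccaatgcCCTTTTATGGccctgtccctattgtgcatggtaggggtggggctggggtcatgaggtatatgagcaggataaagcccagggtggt
Acta1: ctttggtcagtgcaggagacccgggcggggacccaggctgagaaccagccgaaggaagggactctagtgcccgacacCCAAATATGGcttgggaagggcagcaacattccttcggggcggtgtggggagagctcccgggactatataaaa
These lie at chr2:114052876-114053025 on the minus strand for Actc1, chr11:5898783-5898932 on the minus strand for Myl7, chr9:110763528-110763677 on the plus strand for Myl3 and chr8:123894776-123894925 on the minus strand for Acta1. The first base of the box lies at position -47 from the gene start in Actc1, -61 in Myl7, -85 in Myl3 and -73 in Acta1.

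Other short motifs were counted in the same windows. CATTCC, the core bound by TEAD factors, was found on either strand in 41.2% of the 34 sarcomere promoters, 10.5% of the lower genes' promoters and 15.5% of all protein-coding promoters. TATAAA was found in 20.6%, 10.2% and 14.8% in the same order, and AGATAA, which GATA factors bind, in 20.6%, 4.69% and 11.2%. The MEF2 site was found in 2 of the 34 windows and in 102 of the 17492. The sarcomere promoters were also poor in CpG: the observed over expected ratio of CpG was under 0.6 in 27 of 34 (79.4%), against 10.2% of the lower genes' promoters and 52.8% of all protein-coding promoters. Windows were found for only 78.3% of all higher genes, 78% of all table genes and 76.2% of the mitochondrial genes, under the minimum of 80%, so those sets were not described. The protein-coding set was not held to this minimum. It takes only the 17492 genes with a window, beside 21900 protein-coding genes in the RefSeq gene order.

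Calcium handling genes were listed higher for 9 of 12 list members in the table, by a median of 2.56-fold, and most were seen in a minority of the cells. Atp2a2, the calcium pump SERCA2 of the sarcoplasmic reticulum, was 5.04-fold higher, with 68.9% of cells inside and 9.4% outside. Its inhibitor phospholamban, encoded by Pln, was 3.72-fold higher and detected in 32% inside and 0.7% outside. Ryr2, the calcium release channel, was 3.05-fold higher with 39.2% of cells inside and 0.6% outside, and 90.4% of the cells that detected it were worked out to lie in cluster 2. Jph2, which holds the release sites to the surface membrane, was 2.56-fold higher with 34% inside and 1% outside. Calm2, a calmodulin gene, went the other way and was 1.72-fold lower, with 71.6% of cells inside and 84.9% outside. Calr, an endoplasmic calcium store protein, was in the authors' deposited table but had no entry for cluster 2.

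Of the 12 ion channel and transporter genes in the table, 8 were higher and 1 was lower. Kcne1, a potassium channel subunit, was 3.81-fold higher, with 41.1% of cells inside and 0.4% outside, so that 93.7% of the cells with it were worked out to lie in cluster 2. Atp1b1, the beta subunit gene of the sodium pump, was 6.23-fold higher with 73.8% inside and 3.9% outside. Popdc2, a cyclic AMP binding membrane protein of heart, was 4.54-fold higher with 59.2% inside and 2% outside. Rrad, a small G protein that restrains calcium channels, stood outside the lists and was 13.3-fold higher with 89.2% inside and 2% outside. The pump regulator genes Fxyd1 and Fxyd6 went in opposite directions, 2.29-fold higher and 1.73-fold lower.

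Membrane and junction genes were mixed, with 7 of 17 in the table higher and 3 lower. The desmosome genes Dsp, Pkp2 and Jup, whose proteins join heart cells at the intercalated disc, were higher by 2.15-fold, 2.08-fold and 1.88-fold. They were detected in 34.3%, 30.5% and 25.1% of cells inside and in 6.5%, 4.8% and 3.3% outside. N-cadherin, encoded by Cdh2, was 1.79-fold higher, with 53.4% inside and 27.6% outside. Bsg, a chaperone of lactate transporters, was 3.29-fold higher with 98.3% inside and 80.2% outside. Emb, its close relative embigin, was 5.86-fold lower, the largest fold among the lower genes after Nnat in the authors' deposited table. It was detected in 13.6% of cells inside and 59.1% outside. Cd24a and Gpc3, surface proteins of many progenitor cells, were lower by 1.77-fold and 1.83-fold.

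Of 14 secreted signal genes in the table, 3 were higher and 2 lower, which is no more than the 22.7% and 25.7% of all table genes. Nppb, the B-type natriuretic peptide, was 7.19-fold higher but detected in 30% of cells inside, with 0.4% outside. Tgfb2 and Bmp7, growth factors of the TGF-beta family, were 2.08-fold and 1.71-fold higher. The growth factor midkine, encoded by Mdk, was 3.10-fold lower with 57.8% of cells inside and 94.5% outside, and the Wnt antagonist gene Sfrp1 was 3.38-fold lower with 11.9% inside and 50% outside. Cck, the peptide hormone cholecystokinin, was on no list and was chosen after its values were seen. It was 9.40-fold higher with 58.1% of cells inside and 0.9% outside.

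Of 72 genes on the cardiac transcription factor list, 30 were in the table, 8 were listed higher and 2 lower, with 22.7% of all table genes listed higher and 25.7% lower, so the higher count was near the share of the whole table. The 8 had a median fold of 3.43 and median detection of 56.7% of cells inside and 2.35% outside. Nkx2-5 was 5.09-fold higher, and 88% of the cells that detected it were worked out to lie in cluster 2. Mef2c, a driver of muscle genes, was 2.62-fold higher with 38.3% inside and 3.7% outside. Myocd, which encodes the muscle coactivator myocardin, was 2.08-fold higher with 25.4% inside and 0.6% outside, close to the smallest share at which a gene could be listed. Isl1, a factor of second heart field progenitors, was also higher, by 2.42-fold with 31.4% inside and 3.1% outside. Lbh and Cited2, cofactors active in heart development, were higher by 4.25-fold and 2.53-fold. Ankrd1 and Csrp3, which shuttle between sarcomere and nucleus, complete the 8, with Ankrd1 at 10.6-fold. The lower pair were Id3 and Sox4, factors found in many undifferentiated progenitors, by 2.25-fold and 2.28-fold.

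Several heart factor genes in the authors' deposited table had no entry for cluster 2. Gata4 was listed higher only in cluster 14, where 39.4% of cells had it and 3.6% of all other cells, and Hand1 only in cluster 9, at 28.2% inside and 0.9% outside. Gata6, Tbx3, Tbx18 and Irx3 were likewise in the table without an entry for cluster 2. An unlisted gene may still have differed by less than the thresholds of the table.

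Glycolysis and hypoxia genes were listed higher for 19 of 26 members in the table and lower for none. The largest fold was that of Gyg, the glycogenin that primes glycogen, at 19-fold with 98.1% of cells inside and 19.1% outside. Muscle forms of common enzymes were prominent. Pgam2, the muscle phosphoglycerate mutase, was 11.8-fold higher with 78.4% inside and 1.8% outside, and Eno3, the muscle enolase, was 4.48-fold higher with 75% inside and 14.6% outside, whereas the general forms Pgam1 and Eno1 had no entry for cluster 2. Genes of the same pathway that nearly all cells use were higher by level rather than by detection. Aldoa was 2.77-fold higher at 99.3% of cells inside and 91.2% outside, Gapdh 2.45-fold higher at 99.2% and 90.9%, and Ldha 2.04-fold higher at 99.4% and 93.3%. Bnip3, a mitophagy receptor induced by low oxygen, was 4.32-fold higher with 86.4% inside and 30.5% outside.

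The mitochondrial energy list held more higher genes than any other single list. Pgam2 is counted both on it and on the glycolysis list, so not every member is a mitochondrial gene. Of 45 list members in the authors' deposited table, 42 were higher, with a median of 1.97-fold and median detection of 76.9% of cells inside and 46.6% outside. Of the 42, 29 were listed higher in no other cluster, so many may be in the table only through cluster 2. By complex, and in groups chosen after the values were seen, 9 of the 10 nuclear complex I genes in the table were higher, as were 2 of 2 of complex II, 8 of 8 of complex III, 10 of 10 of complex IV and 9 of 10 of the ATP synthase. RefSeq holds 47, 4, 9, 18 and 17 genes under the symbols of these groups, and those outside the table have no value here. Most folds of the complex genes were small, from 1.66 to 2.98 in complex III and from 1.76 to 2.24 in the ATP synthase. The exceptions were isoforms made in muscle or other special tissues. Cox6a2, the heart and muscle form of a complex IV subunit, was 6.90-fold higher with 69.7% of cells inside and 1.1% outside, while the general form Cox6a1 was 1.94-fold higher with 78.2% inside and 50.2% outside. Cox4i2, a form of another subunit linked to low oxygen, was 4.38-fold higher with 68.1% inside and 10.2% outside, against 1.78-fold for Cox4i1 with 98.6% and 95%.

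Beyond the respiratory chain, Chchd10, a protein of the mitochondrial intermembrane space, was 7.74-fold higher with 84.5% of cells inside and 10.8% outside. Slc25a4, the heart form of the ADP/ATP exchanger, was 3.12-fold higher with 98.9% inside and 89% outside. Fabp3, the heart fatty acid binding protein, was 3.87-fold higher with 56.2% inside and 5.3% outside. Fabp5, another member of that family, was the single list gene listed lower, by 2.77-fold with 4.9% inside and 41% outside. Fatty acid oxidation genes were higher by less, with Acaa2 at 2.14-fold and Acadm at 1.82-fold. Of 10 mitochondrially encoded genes in the table, 4 were listed higher in cluster 2, from mt-Co1 at 2.48-fold and mt-Cytb at 2.17-fold to mt-Co2 at 1.89-fold and mt-Co3 at 1.78-fold.

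**Figure D3:**
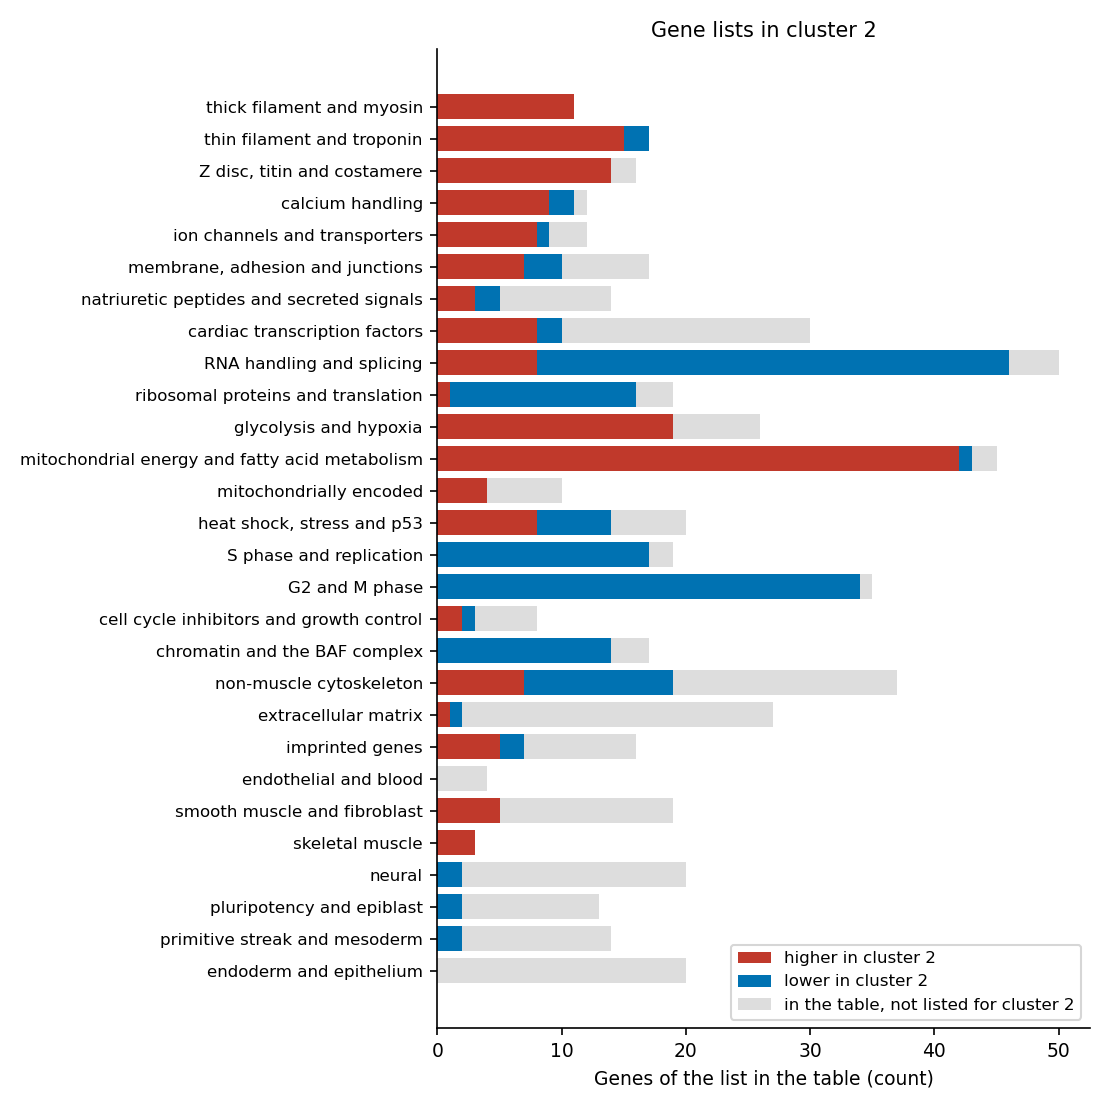
Number of genes of each list that the authors' deposited table holds, split into those listed higher in cluster 2, those listed lower and those with no entry for cluster 2. Sarcomere, glycolysis and mitochondrial lists hold mostly higher genes (42 of 45 in the mitochondrial energy list), and the S phase, G2 and M phase and RNA handling lists mostly lower ones (34 of 35 in the G2 and M phase list).

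Stress genes divided by family. The small heat shock genes, chaperones abundant in heart muscle, were higher in 4 of 4 table members: Cryab, Hspb1 at 12-fold, Hspb7 at 8.08-fold and Hspb2 at 7.80-fold. Hspb7 was detected in 79.7% of cells inside and 1.5% outside, and Hspb1 in 92.8% inside and 8% outside. The large cytosolic chaperones were lower, with Hsp90aa1 at 2.31-fold and Hsp90ab1 at 1.82-fold. All 6 of the 6 subunit genes of the CCT chaperonin in the table, which folds actin and tubulin, were lower by 1.77-fold to 2.01-fold. Among p53 target genes, Cdkn1a, the inhibitor p21, was 3.88-fold higher with 64.6% inside and 15.3% outside. Ccng1 and Phlda3 were higher by 3.13-fold and 2.39-fold, while the p53 gene itself, Trp53, was 2.21-fold lower with 17.1% of cells inside and 48.8% outside.

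Cell cycle genes were listed lower throughout. Of the S phase list, 17 of 19 members in the table were lower and none higher, and of the G2 and M phase list 34 of 35 were lower and none higher, against 25.7% of all table genes listed lower. Mcm6, a subunit of the replication helicase, was detected in 2.7% of cells inside and 36.8% outside. The proliferation marker Mki67 was detected in 3.1% inside and 25.5% outside, the mitotic kinase gene Cdk1 in 4.5% and 27.9%, and the topoisomerase gene Top2a in 5.3% and 39.3%. The D-type cyclin genes Ccnd1 and Ccnd2, which start the cycle, were 3.02-fold and 3.77-fold lower, with 4.9% and 12.6% of cells inside and 38.5% and 47% outside. The genes named here were thus detected in small shares of cluster 2 and were not at 0. Median detection inside was 8.4% for the lower S phase genes and 12.05% for the lower G2 and M phase genes. Some members were found in far more inside cells, up to 47.8% on the S phase list and 88.8% on the G2 and M phase list. Hells, Ccnd3 and Hist1h1b were the list members in the table with no entry for cluster 2.

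Another pair of motifs was counted in promoters of the lower cell cycle genes. The 2 promoters printed were taken from those that hold both motifs, and not all of these promoters do. TTTGAA is the core of the cell cycle gene homology region, and CCAAT is bound by NF-Y. Windows were found for 44 of the 51 genes of both lists, and TTTGAA stood on either strand in 21 of the 44 (47.7%), against 19.9% of all lower genes' promoters, 14.7% of the sarcomere promoters and 18.5% of protein-coding promoters. CCAAT stood in 34 of the 44 (77.3%), against 51.2% of all lower genes' promoters, 50% of the sarcomere promoters and 42.3% of protein-coding promoters. GGGCGG, the GC box, was found in 88.6% of the 44, in 78.9% of all lower genes' promoters, in 41.2% of the sarcomere promoters and in 49.2% of protein-coding promoters. Capitals mark TTTGAA and CCAAT on either strand, where the other strand reads as TTCAAA and ATTGG.
Top2a: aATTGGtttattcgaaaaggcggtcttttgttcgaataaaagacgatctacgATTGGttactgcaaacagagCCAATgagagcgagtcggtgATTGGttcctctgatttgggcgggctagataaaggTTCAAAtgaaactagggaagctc
Cdk1: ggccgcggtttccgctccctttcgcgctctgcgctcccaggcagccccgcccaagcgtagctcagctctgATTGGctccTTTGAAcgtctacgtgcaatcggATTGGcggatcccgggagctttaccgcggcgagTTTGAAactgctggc
The 150 bases lie at chr11:99024190-99024339 on the minus strand for Top2a and at chr10:69352913-69353062 on the minus strand for Cdk1, in GRCm38.p6 from RefSeq. Top2a held 4 CCAAT motifs and 1 TTTGAA, and Cdk1 held 2 of each.

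Chromatin genes were lower in 14 of 17 list members in the table and higher in none. Hmga2, an architectural protein of early and growing tissues, was 3.01-fold lower with 15.9% of cells inside and 53.3% outside. Ezh2, the methyltransferase of the Polycomb repressive complex, was 2.51-fold lower with 7.2% inside and 40.9% outside, and the heterochromatin genes Cbx1 and Cbx5 were lower by 2.48-fold and 1.80-fold. The variant histone H3.3 genes H3f3b and H3f3a were lower by 3.28-fold and 1.74-fold, while still detected in 81.4% and 79.5% of cells inside. Hdac2 and Trim28, a deacetylase and a corepressor, were lower by 1.72-fold and 1.91-fold. The BAF core subunit genes Smarcc1 and Smarcb1 were among the lower members, detected in 18% and 10% of cells inside and in 49.5% and 30% outside. Smarca5, the motor of a different remodelling family, was on no list and was 2.14-fold lower, with 13.3% of cells inside and 41.7% outside.

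RNA handling genes followed the same direction with a set of exceptions. Of 50 list members in the table, 38 were lower and 8 higher, with medians of 1.94-fold for the lower and 2.18-fold for the higher genes. Of the 38, 30 were listed lower in no other cluster, so many may be in the table only through cluster 2. Splicing genes were also counted by family, after their values were seen, beside 25.7% of all table genes listed lower. RefSeq holds 21 hnRNP, 11 SR protein and 19 Sm and LSm genes under these symbols, and those outside the table have no value here. All 11 of the 11 hnRNP genes in the table, all 5 of the 5 SR protein genes and 11 of 12 Sm and LSm genes were lower. Srsf3, an SR protein, had the largest of these differences, 4.74-fold with 16% of cells inside and 73.5% outside. The nucleolar genes Ncl and Npm1 were lower by 3.99-fold and 2.79-fold, and Npm1 was still detected in 94.2% of cells inside and 99.4% outside. The 8 higher members were Hspb1, which is mainly a small heat shock chaperone and had the largest fold at 12-fold, the noncoding RNA genes Malat1 and Meg3 at 2.66-fold and 2.02-fold, and 5 RNA binding protein genes. Rbm24 was 3.26-fold higher with 48.6% inside and 4% outside, Mbnl2 2.25-fold higher with 47.1% and 12.7%, Qk 2.11-fold higher with 49.5% and 18.2%, and Rbfox2 2.07-fold higher with 42.1% and 12.8%. Ptbp1, a splicing repressor that is low in mature muscle, was 1.82-fold lower with 9.2% of cells inside and 31.4% outside. Rbpms, an RNA binding gene on no list, was 4.53-fold higher with 82.7% inside and 20.3% outside.

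Translation genes were lower in 15 of 19 list members in the table, beside 25.7% of all table genes, and by little where detection was near complete. The list holds 84 genes, so most of them had no entry for any cluster and are not shown to be lower. Rps18 was 1.78-fold lower and detected in 99.9% of cells inside and 100% outside, and Rpl12 was 2.07-fold lower with 87% and 96.8%. Eif5a was 2.49-fold lower, and the nascent chain complex gene Naca was 2.92-fold lower with 80.8% inside and 98.5% outside. The single higher member was Eif4ebp1, a repressor of cap-dependent translation, at 1.91-fold. Ribosomal protein genes have many near-identical pseudogenes, and how the authors' counting treated reads shared with them was not stated in the labels.

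Cytoskeleton genes went both ways. Of 37 non-muscle cytoskeleton genes in the table, 7 were higher, 12 were lower and 18 had no entry for cluster 2. These counts stand beside 22.7% of all table genes listed higher and 25.7% listed lower. Among the higher were genes of smooth muscle type, Myl9 at 17.5-fold, Cnn1 at 5.70-fold and Tagln at 5.03-fold. Dstn, an actin severing protein, was 3.62-fold higher with 96.2% of cells inside and 54.1% outside. The general actins Actb and Actg1 were lower by 2.07-fold and 2.21-fold, and 5 of 6 tubulin genes in the table were lower by 2.08-fold to 2.13-fold. Marcks and Marcksl1, which tie actin to the membrane, were lower by 4.79-fold and 3.36-fold, and Marcks was detected in 9.8% of cells inside and 68.6% outside. Tagln2, a relative of Tagln found in many cells, was 2.81-fold lower with 14.3% inside and 47.3% outside.

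Opposite directions within a gene family recurred beyond these, in pairs chosen after their values were seen. Igfbp5, a binding protein of insulin-like growth factors, was 2.60-fold higher, while Igfbp2 was 5.61-fold lower with 9.4% of cells inside and 60.6% outside. Adssl1, the muscle form of an enzyme of purine synthesis, was 2.18-fold higher, while the general form Adss was 1.96-fold lower. The peroxiredoxin gene Prdx3, whose protein works in mitochondria, was 2.30-fold higher, while Prdx1 of the cytosol was 2.36-fold lower.

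**Figure D4:**
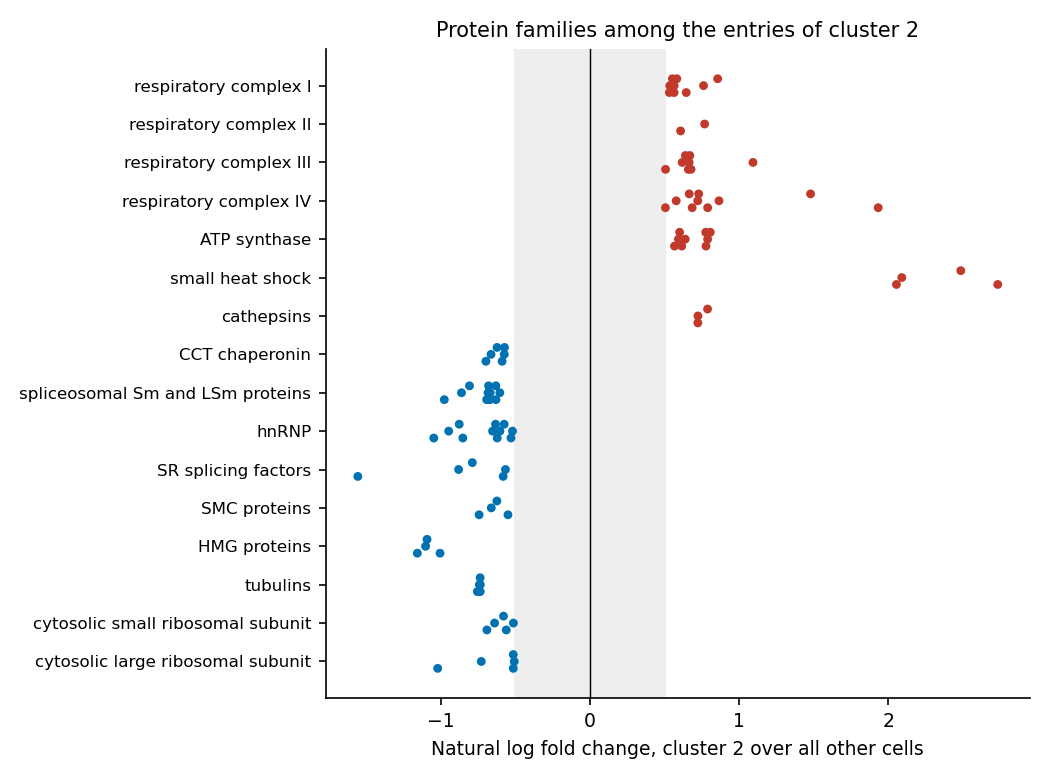
Natural log fold change of cluster 2 over all other cells for the listed members of 16 protein families, each point 1 gene, with the grey band marking folds too small for the table. The small heat shock genes lie farthest to the right, the respiratory complexes lie to the right of the band, and the CCT, splicing, HMG, tubulin and ribosomal families lie to its left.

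Few extracellular matrix genes set cluster 2 apart. Of 27 list members in the table, only Vcan, the proteoglycan versican of the early heart, was higher, by 2.99-fold with 68.8% of cells inside and 21.9% outside, and only Mfap2 was lower, by 2.29-fold. None of the 10 collagen genes in the table had an entry for cluster 2. Among imprinted genes, 5 of 16 in the table were higher and 2 lower, beside 22.7% and 25.7% of all table genes. Nnat, the neuronatin gene, was 11.2-fold lower with 5.2% of cells inside and 70.8% outside, the largest fold of any lower gene, and Mest was 2.78-fold lower. Igf2r was 3.36-fold higher, and Airn, the noncoding RNA that runs antisense to it, was 2.14-fold higher. The labels do not say whether the counting used strand, so reads of this overlapping pair may not be separable.

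Markers of other cell types were mostly without an entry. None of the 4 endothelial and blood genes and none of the 20 endoderm and epithelium genes in the table was listed for cluster 2 in either direction. Of 20 neural genes in the table, none was higher and 2 were lower, Otx2 with 0.3% of cells inside and 31.9% outside and Crabp1 with 11.4% and 31.1%. The pluripotency list had none higher of 13 and the primitive streak and mesoderm list none higher of 14. Ifitm1 of the mesoderm list was 4.12-fold lower with 0.9% inside and 36.2% outside. The smooth muscle and fibroblast list had 5 of 19 higher, Acta2, Tagln, Cnn1, Myl9 and Des, near the 22.7% of all table genes. Acta2, Tagln, Cnn1 and Des are also made by early heart muscle, and Col1a1, Col3a1, Postn and Pdgfra of the same list had no entry for cluster 2. All 3 of the 3 skeletal muscle genes in the table were higher, Acta1, Tnni1 and Tnnt1, and these too are genes of the fetal heart.

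Genes detected in few cells made up a large share of the list. Of the 272 higher genes, 114 were detected in under 50% of inside cells and 46 in at least 90%. Among the 15 found in the fewest cells were Ppp1r3c, a glycogen targeting subunit of a phosphatase, at 25.2% of cells inside and 1.1% outside, and Smpx, a small muscle protein, at 26.7% and 0.4%. Mylk3, the cardiac myosin light chain kinase, was at 26.9% and 0.6%, and Fhod3, a formin of the sarcomere, at 27.1% and 1.8%. For Smpx, 90.6% of the cells that detected it were worked out to lie in cluster 2, and for Mylk3 86.6%. Ank3, Sgms1 and Camk2d, which were as sparse inside, were found in 4.1% to 5.4% of outside cells, and 42.4% to 48.5% of their detecting cells lay in cluster 2. Of the 308 lower genes, 78 were detected in under 10% of cells inside and 43 in at least 50%.

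The values just inside the threshold show what the table could hold. The smallest folds of the higher genes were those of Grhpr, Cox5b and Uqcrc1, each at 1.66-fold, with Grhpr in 40.9% of cells inside and 21.4% outside. The smallest of the lower genes were those of Pdia6, G3bp2 and Prdx4, each at 1.65-fold, with Pdia6 in 34.4% of cells inside and 54.7% outside. Values just outside the threshold are not in the authors' deposited table.

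Some entries were neighbours in the genome. In the RefSeq gene order of GRCm38.p6, 35 pairs of entries were next to each other, of which 17 were both higher, 8 both lower and 10 opposite. The order held 263 higher and 302 lower entries among 21900 protein-coding genes. How many pairs such numbers give without any grouping was not worked out, so the count does not show that entries lie together. Pairs both higher included the heavy chain genes Myh6 and Myh7, the troponin genes Tnnt1 and Tnni3, the small heat shock genes Cryab and Hspb2, and Ttn with Ccdc141. Cdkn1a and Srsf3 were an opposite pair, the first 3.88-fold higher and the second 4.74-fold lower.

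Clusters 13 and 9 are set beside cluster 2, because cluster 13 lists the cardiomyocyte markers as higher and cluster 9 some smooth muscle and heart genes. Cluster 9 had no entry for Actc1, Myl7, Myl4, Tnnt2, Ttn or Nkx2-5. They were worked out to hold 0.497% and 3.24% of all cells. The 3 comparisons share most of their outside cells, so their values are given side by side with no test. To put them on one scale, each level was worked out relative to the mean level of all cells. Actc1 stood at 7.08 times that mean in cluster 2 and 2.56 times in cluster 13, with 98.2% and 48% of cells detecting it. Ttn stood at 5.90 times in cluster 2 and 3.36 times in cluster 13, and Nkx2-5 at 3.35 and 2.05 times. Atp2a2 was closer, at 3.34 times in cluster 2 and 2.80 times in cluster 13. Mitochondrially encoded genes had the opposite order, with mt-Co1 at 2.09 times in cluster 2 and 3.20 times in cluster 13 and mt-Cytb at 1.89 and 3.21 times. The part of mitochondrial RNA content in the entries of cluster 13 was not tested.

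Cluster 9 listed smooth muscle genes, Cdkn1a and Isl1 as higher too. Tagln stood at 3.33 times the mean of all cells in cluster 2 and 3.79 times in cluster 9, with 58.3% and 60.3% of cells detecting it, and Cdkn1a at 2.85 and 3.29 times. Acta2 stood at 6.09 times in cluster 2 and 3.26 times in cluster 9, and Des at 4.15 and 1.87 times. Bambi, a decoy receptor of BMP signals, stood at 2.26 times in cluster 2 and 3.69 times in cluster 9, with 56.8% and 72.1% of cells. Isl1 stood at 2.05 times in cluster 2 and 1.76 times in cluster 9. Myl3 stood at 6.52 times in cluster 2 and 0.548 times in cluster 9, where it was listed lower. Tagln2 and Cd24a, which were lower in cluster 2 at 0.387 and 0.599 times the mean, were higher in cluster 9 at 2.35 and 2.16 times. Igfbp4 was also lower in cluster 2 and higher in cluster 9, at 0.610 and 1.74 times. Emb was low in both, at 0.191 times in cluster 2 and 0.228 times in cluster 9. Cell cycle and RNA handling genes were among those low in both too. Top2a stood at 0.328 times in cluster 2 and 0.573 times in cluster 9, and Srsf3 at 0.235 and 0.454 times. Ncl stood at 0.277 times in cluster 2, 0.554 times in cluster 13 and 0.420 times in cluster 9. Mki67 and Cdk1 had no entry for clusters 13 and 9.

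**Figure D5:**
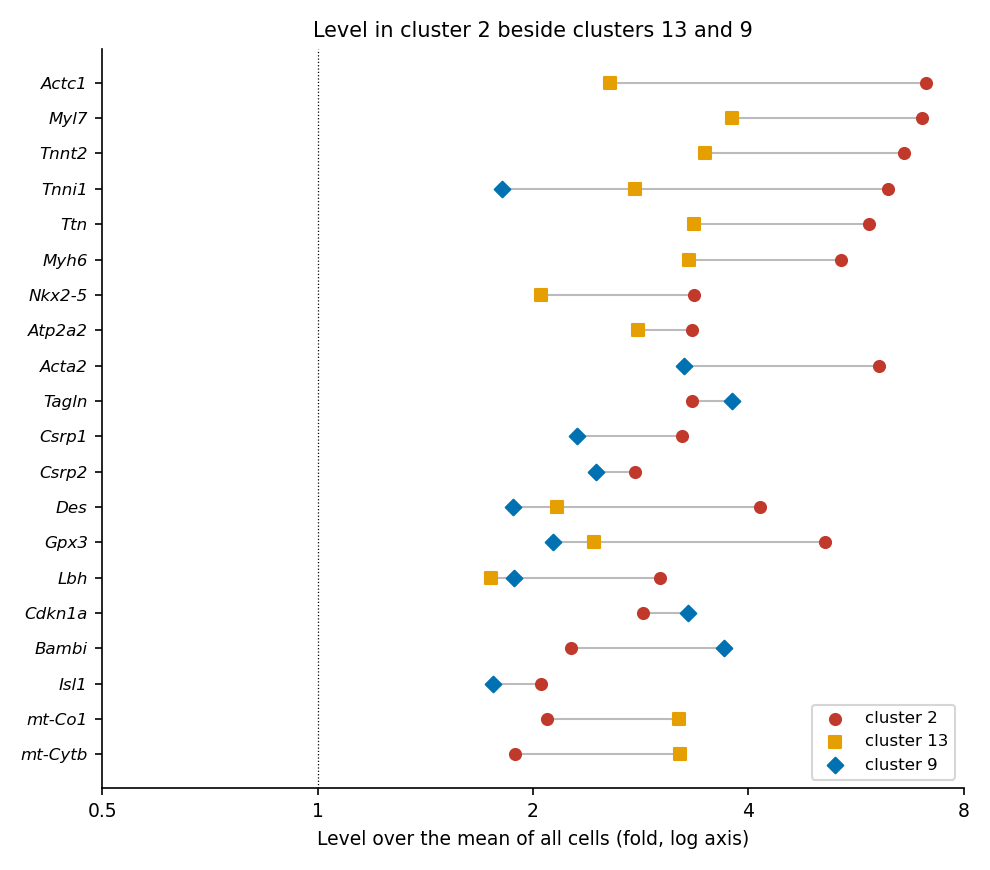
Level of selected genes as a multiple of the mean of all cells (log axis, dotted line at 1), worked out from the authors' deposited table, in cluster 2 and in clusters 13 and 9 where a gene is listed for them. Actc1 lies at 7.08 in cluster 2 and 2.56 in cluster 13, mt-Co1 at 2.09 and 3.20, and Tagln at 3.33 in cluster 2 and 3.79 in cluster 9.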

How the data were processed

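Single cells of 4 libraries were profiled by 10x sequencing. The submitters' processing notes name Cell Ranger, Seurat and the mm9 build; the labels state no versions, cell filters, doublet treatment or clustering settings. The authors deposited natural log fold changes of each cluster over all other cells, the fraction of cells detecting each gene, and p-values that compare cells. Cells are not replicates, so the p-values served only to filter entries in 1 alternative. The deposited header names the logs without a base; the natural base held for 6 of 6 genes listed in at least 12 clusters, base 2 for 1 and base 10 for none. Folds printed are the exponential of the deposited value, and for lower genes its inverse. The authors' logs include an added constant of unstated size, which can understate the folds of genes at low levels. Depth is unknown, so no counting interval was made.

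Cluster sizes were solved by least squares from the detection shares of 407 genes listed for 2 or more clusters; their sum came to 100.002% (residual SD 0.0228 percentage points). How many of the detecting cells the cluster holds and the level over the mean of all cells follow from these sizes. Solving was tested on 15 simulated clusters, with a largest size error of 0.00712 percentage points over 957 genes. The 28 gene lists hold 1184 genes, and 309 of the 580 entries are on one. The members and lists were chosen with earlier results of these data known. Named were the 20 highest and 20 lowest folds, the 8 largest of each list and the 15 higher genes in the smallest share of cells. So were the 15 higher genes with the largest difference of detection inside minus outside, and the 10 with the highest outside detection. The 5 nearest the threshold in each direction and the markers complete the rule. Other genes named were chosen after their values were seen. Some genes that the rule takes are not reported here. Of the 580 entries, 579 matched a RefSeq symbol or synonym; promoters and gene order are of GRCm38.p6, not the authors' build, and were joined by name only. The calculations ran in Python 3.11.15 (pandas 2.3.3, numpy 2.4.6, scipy 1.17.1) and figures were drawn with matplotlib 3.10.9.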

Additional observations from a re-analysis of the deposited data

How the results depend on the processing

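Of 367 values recomputed under other settings for 66 results, 258 were within 1.5 times of the reported value, 109 moved further and 0 reversed. Counts of entries in 1 direction can only fall or stay under a stricter setting, and counts of 0 stay at 0, so these could not reverse. The adjusted p setting of 0.001 removed no entry, because all adjusted p-values of cluster 2 lay far below it. The counts below show only how far the numbers fall. At a minimum natural log fold of 0.75, cluster 2 had 165 higher and 114 lower entries, and lists counted 16 higher mitochondrial energy genes and 11 lower RNA handling, 10 lower S phase, 5 lower chromatin and 3 lower translation genes. With at least 1, it had 100 higher and 46 lower entries, with 8 mitochondrial energy, 6 glycolysis and 4 calcium handling genes higher, and 10 G2 and M phase, 7 S phase, 4 RNA handling, 2 chromatin and 2 translation genes lower. With detection in at least 50% of cells on either side, 158 were higher and 140 lower, with 2 calcium handling genes higher and 23 RNA handling, 10 G2 and M phase, 6 S phase and 6 chromatin genes lower. Counting only genes listed in the same direction in no other cluster left 161 higher and 201 lower, with 17 sarcomere genes higher and 21 G2 and M phase, 9 S phase and 8 chromatin genes lower. Without ribosomal, mitochondrial and predicted genes, 5 translation genes were lower. Taking cluster 13 out of the outside cells changed the outside share of 57 genes by at most 0.255 percentage points. No paired analysis was possible because each group has 1 library and the table names no library.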
